A study of Mus musculus with 6 samples.

Results

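Glutathione peroxidases, peroxiredoxins and catalase are the enzymes that take hydrogen peroxide out of cells. Of 10 genes listed for this group (Gpx1, Gpx3, Gpx4, Prdx1, Prdx2, Prdx3, Prdx4, Prdx5, Prdx6 and Cat), 7 had at least 1 probe set that the array's annotation assigns to that gene alone, among 18193 genes with such a probe set on the array. These 7 genes had 13 probe sets. The 5 probe sets assigned to Prdx1 are assigned to Gm21399 as well and were not used for Prdx1. No probe set carried the symbol Prdx5 or Prdx6 in the annotation used, and these genes were not analysed here.

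RNA of microdissected mouse thyroid was measured on 6 arrays at postnatal day 15, of which 3 arrays came from Slc26a4 knockouts (samples 2, 4 and 6) and 3 from Slc26a4 heterozygotes (samples 1, 3 and 5). Slc26a4 encodes pendrin, an anion exchanger that sits in the apical membrane of follicular cells. The heterozygotes served as controls, so that all 6 samples came from animals with a disrupted allele and no wild-type sample was compared. The sources used here name neither strain nor sex, nor the deleted part of the gene, nor how many animals gave each RNA. The p-values therefore set each difference only against the scatter of these samples, part of which may be technical.

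Thyroid follicular cells make hydrogen peroxide on purpose. Dual oxidases release it at the apical membrane, where thyroperoxidase uses it to attach iodine to thyroglobulin, and the excess has to be removed inside the cell and at its surface. Glutathione peroxidases, several of which carry selenocysteine, reduce peroxides with glutathione. Peroxiredoxins do so through a reactive cysteine that is mostly restored by thioredoxin, and catalase splits hydrogen peroxide in the peroxisome without either of these. The comparison asks whether the transcripts of these enzymes differ in level in the thyroid that lacks pendrin.

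All values are array signals on a linear scale unless a log2 difference is named, and every difference is knockout minus heterozygous. Control probe sets for bacterial transcripts read at most 22.9 on any array and serve as the background. The probe set of Slc26a4 (1419725_at) read 7.29, 2.10 and 15.7 in knockouts 2, 4 and 6, against 4.997, 4.59 and 12.1 in heterozygotes 1, 3 and 5. All 6 values lay under the background, so this probe set checks neither genotype. The follicular cell marker Tg read between 11794 and 13201 on the knockout arrays, against 12449 to 13805 on the heterozygous arrays, and Pax8, a thyroid transcription factor, read at least 2431 on every array. Tissues beside the thyroid were present as well and in unequal amounts. The parathyroid hormone gene Pth read between 2789 and 11058 in knockouts, against 165.2 to 10356 in heterozygotes, and the lymphocyte enzyme Dntt read 1779 in knockout 4 and at most 24.5 on each other array. In such bulk samples, fewer cells of a type and less RNA per cell cannot be told apart.

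None of the measured peroxide-removing enzymes differed between genotypes beyond the spread between arrays. Of the 13 probe sets, 12 were bright enough to be tested, and 0 passed at an adjusted p of 0.05 (limma), as did 0% of the 27022 probe sets tested on the array. By limma's unadjusted p, 0 of these 12 and 138 of all tested (0.51%) lay under 0.05. Without knockout 2 it was 1 of the 12, Prdx4 1435731_x_at, and 934 of all tested. In no case did the 3 knockout arrays lie wholly above or below the 3 heterozygous arrays, which happened for 3.68% of all tested probe sets. The log2 differences of the 12 ran between -0.13 and 0.10, with 5 positive and 7 negative. Their median was -0.02, beside -0.002 over all tested probe sets. For 11 of the 12, the 95% interval of the difference lay inside a 1.5-fold change in either direction, and so it did for 56.9% of all tested probe sets.

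**Figure D1:**
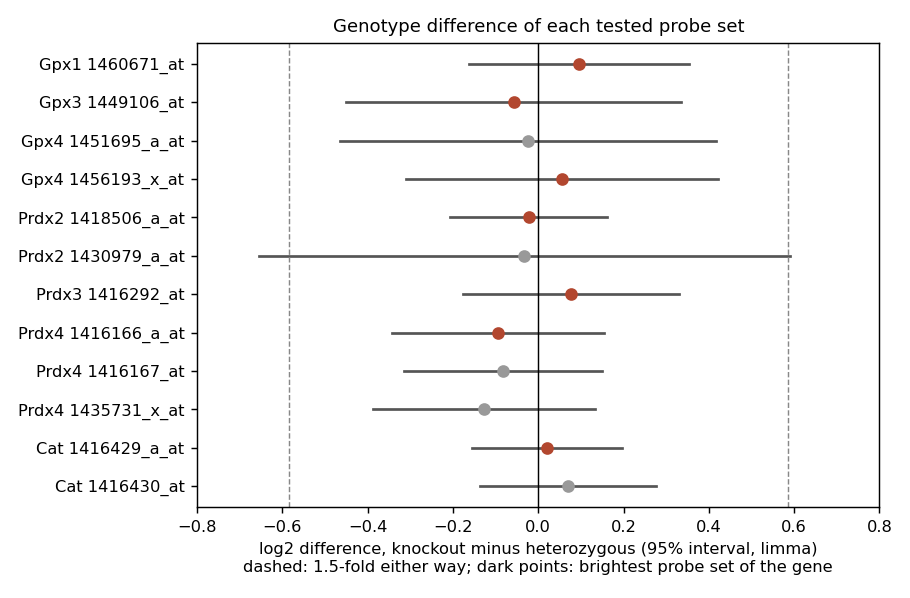
Log2 difference between knockout and heterozygous thyroid for each of the 12 tested probe sets (x axis), with limma's 95% intervals as lines and 1.5-fold either way dashed. Every interval includes 0, and the interval of the dim Prdx2 probe set 1430979_a_at alone reaches past a dashed line.

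Although the genotypes overlapped, the arrays themselves differed, and not in the same way for all enzymes. Gpx3, Gpx4 and Prdx3 had their 2 lowest arrays in knockout 2 and heterozygous 3, and Gpx1 its lowest in heterozygous 3. The bright probe set of Prdx2 was also lowest on heterozygous 3 and knockout 2 but moved little, as did Cat. Prdx4 was high on knockout 2 and low on knockout 6. The 250 bases before the RefSeq start of 4 of these genes (assembly GRCm38.p6) are given 5′ to 3′. Gpx1, Gpx3 and Prdx3 are 3 of the genes whose lowest array was heterozygous 3, and the lowest of Prdx4 was knockout 6. Whether these sequences bear on the differences between arrays was not tested. Capitals mark the GC box, GGGCGG on either strand.
Gpx1, chr9:108338830-108339079, plus strand: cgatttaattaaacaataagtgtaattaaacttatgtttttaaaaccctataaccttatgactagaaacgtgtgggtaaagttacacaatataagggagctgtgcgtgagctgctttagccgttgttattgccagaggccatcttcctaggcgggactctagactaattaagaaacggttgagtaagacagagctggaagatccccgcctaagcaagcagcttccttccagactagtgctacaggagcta
Gpx3, chr11:54902604-54902853, plus strand: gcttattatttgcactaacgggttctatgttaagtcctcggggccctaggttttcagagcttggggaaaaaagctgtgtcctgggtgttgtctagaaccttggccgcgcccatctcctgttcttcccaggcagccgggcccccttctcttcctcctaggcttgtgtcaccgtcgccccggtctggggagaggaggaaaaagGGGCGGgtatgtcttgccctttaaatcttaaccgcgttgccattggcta
Prdx3, chr19:60874539-60874788, minus strand: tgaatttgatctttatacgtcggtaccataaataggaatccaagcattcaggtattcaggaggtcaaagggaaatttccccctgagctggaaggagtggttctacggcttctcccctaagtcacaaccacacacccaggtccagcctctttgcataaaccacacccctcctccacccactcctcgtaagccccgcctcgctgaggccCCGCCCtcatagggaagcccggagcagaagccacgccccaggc
Prdx4, chrX:155338461-155338710, minus strand: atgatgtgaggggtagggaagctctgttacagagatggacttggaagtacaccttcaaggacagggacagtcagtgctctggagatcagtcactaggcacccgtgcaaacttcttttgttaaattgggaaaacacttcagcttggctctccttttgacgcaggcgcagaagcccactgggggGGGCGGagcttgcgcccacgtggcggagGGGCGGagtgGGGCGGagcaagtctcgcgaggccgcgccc

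The window of Prdx4 held 3 GC boxes, those of Gpx3 and Prdx3 held 1 each, and that of Gpx1 held 0. The brighter probe sets of Prdx2 and Gpx4 were lowest on heterozygous 3 as well. The window of Prdx2 held 0 GC boxes, and those of Gpx4 held between 0 and 2. RefSeq gave a window for 9 of the 10 listed genes, 12 windows in all since Gpx4 has 4 starts, and 7 of the 9 genes had a GC box in at least 1 window. Counted by window it was 9 of 12, where 2 overlapping windows of Gpx4 share their GC boxes, beside 32.7% of the 32851 windows of all genes. The core of the antioxidant response element, the site of the oxidative stress factor Nrf2, was searched as TGACNNNGC on both strands. It was found in 1 of the 12 windows, that of Prdx1, and in 10.2% of all windows. The letters of a TATA box, TATAAA on either strand, were found in the windows of Prdx1 and Prdx3, and in 12.4% of all windows. In Prdx3 the match lay on the opposite strand, as TTTATA near the 5′ end of the window, far from the start. No match of 1 motif overlapped a match of another in the 12 windows. A match describes these letters only.

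Gpx1 is the main glutathione peroxidase of cytosol and mitochondria. Its probe set 1460671_at read 5240, 5780 and 5780 in knockouts 2, 4 and 6, against 5197, 4543 and 6072 in heterozygotes 1, 3 and 5. The heterozygous arrays held both the lowest and the highest value, and all 3 knockout arrays lay between them. The means were 5600 ± 312 in knockout and 5271 ± 768 in heterozygous thyroid (SD, n = 3 each). The log2 difference was 0.10 ± 0.11 (SE; limma, adjusted p = 1.0), and its 95% interval ran from 0.894-fold to 1.28-fold. Without heterozygous 3, the array with the lowest value, the log2 difference was -0.006.

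Gpx3 is the secreted glutathione peroxidase, the main form in plasma. It read 4053, 5128 and 5511 in knockouts 2, 4 and 6, against 5446, 3968 and 5977 in heterozygotes 1, 3 and 5 (probe set 1449106_at). Knockout 2 and heterozygous 3 stood about equally low, and the other 4 arrays lay between 5128 and 5977. The means were 4897 ± 756 in knockout and 5130 ± 1041 in heterozygous thyroid (SD, n = 3 each). Their log2 difference was -0.06 with an SE of 0.17 (limma, adjusted p = 1.0). The interval ran from 0.732-fold to 1.26-fold. The highest array was 1.51 times the lowest, and 94.6% of the 1000 tested probe sets closest in mean log2 value had a smaller spread within genotypes. The sign rested on single arrays, with a log2 difference of 0.07 without knockout 2 and -0.23 without heterozygous 3.

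Gpx4 reduces peroxides of membrane lipids and guards against ferroptosis. Its brighter probe set, 1456193_x_at, read 5105, 5823 and 6534 in knockouts 2, 4 and 6, against 5825, 4415 and 6727 in heterozygotes 1, 3 and 5. The other, 1451695_a_at, read 2155, 2566 and 3506 in knockouts, against 2789, 2282 and 3203 in heterozygotes. Both were low on knockout 2 and heterozygous 3 and high on knockout 6 and heterozygous 5, and in both the genotypes overlapped. The suffix _x_at marks a probe set some of whose probes may also match other transcripts. The log2 differences were 0.06 ± 0.16 for the brighter and -0.02 ± 0.19 for the dimmer (SE; limma, adjusted p = 1.0 for each), with intervals from 0.807-fold to 1.34-fold and from 0.724-fold to 1.34-fold. The dimmer one had the widest span among the bright probe sets of the group, its highest array at 1.63 times its lowest. Their spread within genotypes was larger than that of 94.3% and 93.0% of the 1000 probe sets nearest in brightness.

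**Figure D2:**
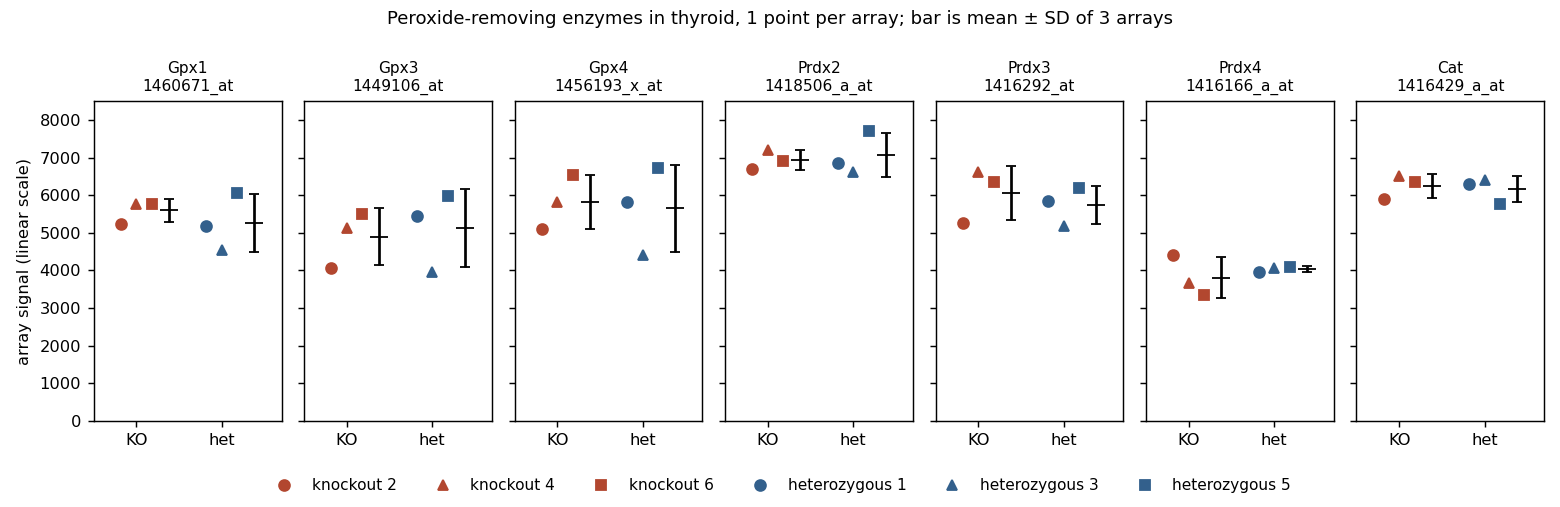
Array signal (linear y axis from 0) of the brightest probe set of each of the 7 genes on the 3 knockout and 3 heterozygous arrays, 1 point per array, with the mean ± SD of each genotype as a bar. The genotypes overlap in every panel. Gpx3 and Gpx4 spread widely in both genotypes, and Prdx4 spreads in knockouts (SD 542) but hardly in heterozygotes (SD 67.3).

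Among the peroxiredoxins, Prdx2 is a cytosolic enzyme that is very abundant in red blood cells. Its bright probe set, 1418506_a_at, read 6700, 7208 and 6918 in knockouts 2, 4 and 6, against 6861, 6609 and 7722 in heterozygotes 1, 3 and 5. The knockout values lay within the range of the heterozygous ones. The means of 6942 ± 255 in knockout and 7064 ± 584 in heterozygous thyroid (SD, n = 3 each) differed by -0.02 on the log2 scale with an SE of 0.08 (limma, adjusted p = 1.0), and the interval from 0.867-fold to 1.12-fold was among the narrowest of the group. The second probe set, 1430979_a_at, read only between 62.7 and 104.6 in knockouts, against 65.1 to 115.8 in heterozygotes. It put heterozygous 3 highest where the bright one put it lowest, and its interval, from 0.635-fold to 1.51-fold, was the widest of the group. Of the 7 listed red cell markers, 4 had a probe set of their own. Their summed signal ran from 340.3 to 620.4 in knockouts and from 155.3 to 467.9 in heterozygotes. The globin Hba-a1 and the membrane skeleton protein Epb42 were under background on all arrays, each by its brightest own probe set. Probe sets assigned to several genes were not used, and Hbb-b1, the other listed globin, had none of its own. These values therefore do not show how much globin RNA was present. Alas2 read 281.2, 482.5 and 311.7 in knockouts 2, 4 and 6, against 118.4, 166.6 and 310.4 in heterozygotes 1, 3 and 5. On the log2 scale its knockout mean stood 0.86 higher (limma, unadjusted p = 0.035), but the genotypes overlapped. For Slc4a1, the other tested marker, the knockout mean stood 0.12 higher, and 0 of these 2 passed (limma). The part of red cells in the Prdx2 signal was not tested.

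Prdx3 is the peroxiredoxin of the mitochondrial matrix. It read 5258, 6616 and 6345 in knockouts 2, 4 and 6, against 5855, 5179 and 6197 in heterozygotes 1, 3 and 5 (1416292_at). As with Gpx3, knockout 2 and heterozygous 3 were the 2 lowest arrays. The means were 6073 ± 718 in knockout and 5744 ± 518 in heterozygous thyroid (SD, n = 3 each). Their log2 difference was 0.08 with an SE of 0.11 (limma, adjusted p = 1.0) and an interval from 0.885-fold to 1.26-fold.

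Prdx4 is the peroxiredoxin of the endoplasmic reticulum, where it uses peroxide made during disulphide formation. Probe set 1416166_a_at read 4405, 3669 and 3349 in knockouts 2, 4 and 6, against 3966, 4053 and 4099 in heterozygotes 1, 3 and 5. The heterozygous arrays were nearly alike, whereas knockout 2 lay above all of them and knockouts 4 and 6 below. The same held for 1435731_x_at, with 3850, 3256 and 2878 in knockouts against 3537, 3730 and 3575 in heterozygotes. The third, 1416167_at, read 3342, 3088 and 2688 in knockouts and 3280, 3288 and 3063 in heterozygotes, and knockout 4 there fell within the heterozygous range. Their log2 differences were -0.09, -0.13 and -0.08 in that order of naming (limma, adjusted p = 1.0 for each). The lowest interval bound of the 3 was 0.764-fold and the highest was 1.11-fold. Without knockout 6 the 3 differences were -0.007, -0.03 and 0.002, and without knockout 2 they were -0.20, -0.24 and -0.15. A further probe set, 1431269_at, read between 19.5 and 26.3 in knockouts, against 21.3 to 53.2 in heterozygotes, lay near background and was not tested.

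Catalase, the peroxisomal enzyme, varied least of the 7 genes by its brightest probe set. Cat read 5896, 6522 and 6350 in knockouts 2, 4 and 6, against 6313, 6407 and 5782 in heterozygotes 1, 3 and 5 (1416429_a_at), so that its highest array was only 1.13 times its lowest. Its other probe set, 1416430_at, read 4320, 5021 and 4261 in knockouts against 4518, 4186 and 4221 in heterozygotes. Both had their highest value on knockout 4, and in both the genotypes overlapped. The log2 differences were 0.02 ± 0.08 and 0.07 ± 0.09 (SE; limma, adjusted p = 1.0 for each), with intervals from 0.898-fold to 1.15-fold and from 0.910-fold to 1.21-fold. Without knockout 4 they were -0.010 and -0.005.

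The differences between arrays were shared by several enzymes. On a log2 scale, with each gene centred on its mean of 6 arrays, the median of the 3 glutathione peroxidases stood at -0.15, 0.05 and 0.15 on knockouts 2, 4 and 6 and at 0.04, -0.32 and 0.24 on heterozygotes 1, 3 and 5. Of the 12 tested probe sets, 6 had their lowest value on heterozygous 3, an array that held the lowest value for 11.2% of all tested probe sets. Another 4 were lowest on knockout 6, where 22.9% of all tested probe sets were lowest. The 6 lowest on heterozygous 3 were those of Gpx1 and Gpx3, the brighter ones of Gpx4 and Prdx2, that of Prdx3 and Cat 1416430_at. The 4 on knockout 6 were the 3 tested ones of Prdx4 and the dim one of Prdx2.

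Markers of other tissues moved with these shifts. All 5 listed brown fat markers, among them the uncoupling protein Ucp1, had a tested probe set, 4 with a positive and 1 with a negative log2 difference, and 0 passed (limma). Elovl3, the dimmest of them, read 285.1, 229.4 and 270.8 in knockouts 2, 4 and 6, against 213.9, 140.7 and 93.9 in heterozygotes 1, 3 and 5. Its groups lay apart, as for 3.68% of all tested probe sets, with a log2 difference of 0.80 (limma, unadjusted p = 0.018). The median deviation of the 5 was -0.21, 0.19 and 0.21 on knockouts 2, 4 and 6, and -0.02, -0.22 and 0.21 on heterozygotes 1, 3 and 5. It thus had the sign of the glutathione peroxidases on each array except heterozygous 1. The match was not particular to brown fat, since the medians of the adipocyte and Schwann cell markers had that sign on all 6 arrays. On knockouts 2, 4 and 6 they were -0.17, 0.07 and 0.16 for adipocyte and -0.42, 0.69 and 0.24 for Schwann cell markers. On heterozygotes 1, 3 and 5 they were 0.10, -0.20 and 0.21, and 0.50, -1.19 and 0.18. The summed signal of the 5 brown fat markers ran from 26201 to 34819 in knockouts and from 26928 to 34956 in heterozygotes, and none of the 5 was under background. The 6 skeletal muscle markers had medians of 0.64, -0.11 and -1.51 on knockouts 2, 4 and 6 and of 0.61, 0.19 and 0.08 on heterozygotes 1, 3 and 5. Prdx4 1416166_a_at and 1435731_x_at had these signs on all 6 arrays. The remaining tested Prdx4 probe set, 1416167_at, did not, since it stood at -0.02 on heterozygous 5. All 6 muscle markers had a negative log2 difference, from -0.96 to -0.40, beside 13704 of the 27022 probe sets tested, and 0 passed (limma). Their summed signal ran from 5424 to 26707 in knockouts and from 17219 to 25642 in heterozygotes, and none was under background. The follicular cell markers, 6 of 7 with a probe set, summed to between 21238 and 24426 in knockouts and between 20922 and 26127 in heterozygotes. The part of these tissues in the enzymes' levels was not tested.

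**Figure D3:**
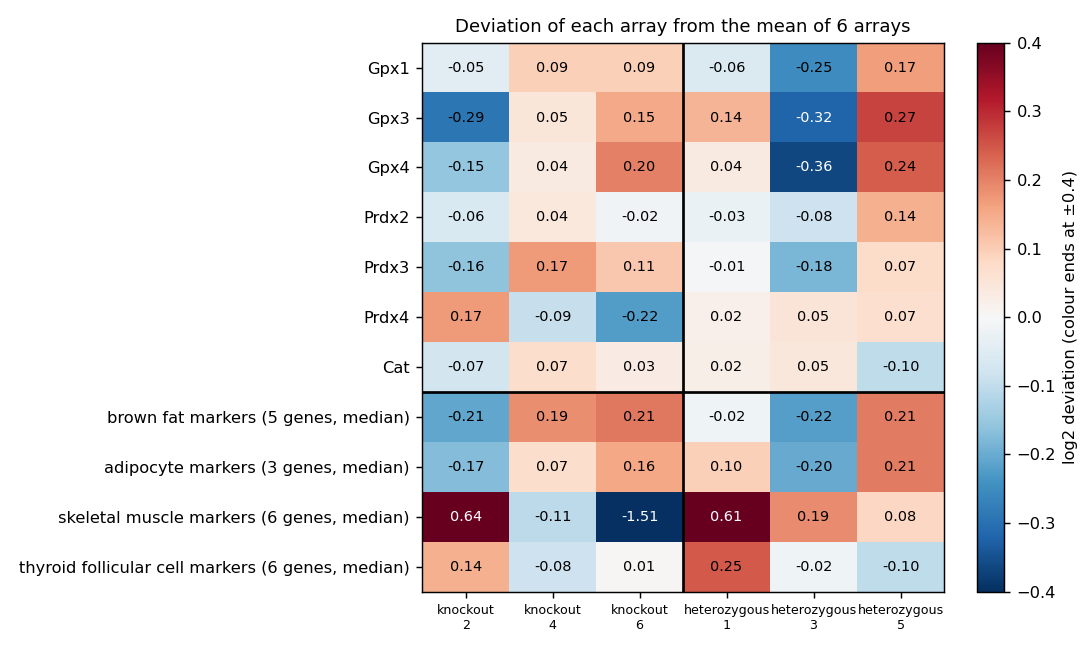
Log2 deviation of each array (columns, knockouts left of the line) from the mean of all 6, for the brightest probe set of each of the 7 genes and, under the line, for the median of 4 marker lists; the colour scale ends at ±0.4 and cells print the value. Gpx1, Gpx3, Gpx4, Prdx2 and Prdx3 are below 0 on knockout 2 and heterozygous 3 together with the brown fat and adipocyte markers.

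The genes on the array that followed the most variable enzymes most closely were found by the root mean square difference between centred log2 values over the 6 arrays, among 23242 tested probe sets of other genes. Nearest to Gpx4 (1456193_x_at) were Fah, the last enzyme of tyrosine breakdown, and Mrpl21, a mitochondrial ribosomal protein, each 0.03 away. Nearest to Gpx3 were Tmem126b, an assembly factor of respiratory complex I, and a dim probe set of Slc25a4, the mitochondrial ADP/ATP carrier of heart and muscle, each also 0.03 away. Nearest to Gpx1 were Gars, the glycyl-tRNA synthetase, at 0.01, and the phospholipase Pnpla8, at 0.02. Within a wider limit of 0.1 lay 119 probe sets for Gpx3, 294 for Gpx4 and 1059 for Gpx1. With only 6 arrays these are descriptions of likeness.

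The genes around these enzymes did not pass either. Of 46 listed genes that make peroxide, feed the enzymes with reducing power, belong to the same families or build peroxisomes, 41 had a probe set of their own and 37 were tested, each by its brightest probe set. None of the 37 passed (limma), 0 had an unadjusted p under 0.05, and their log2 differences ran from -0.17 to 0.30.

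Peroxide sources had 10 tested genes, 5 with a positive and 5 with a negative log2 difference and a median of -0.002. The smallest unadjusted p of the list belonged to Cyba, a subunit that stabilises NADPH oxidases, which read 2006, 2182 and 2029 in knockouts 2, 4 and 6, against 2410, 2287 and 2056 in heterozygotes 1, 3 and 5. Next was Sod3, the extracellular superoxide dismutase, whose product is hydrogen peroxide, with 760.7, 1121 and 987.7 in knockouts against 742.6, 794.7 and 982.1 in heterozygotes. The genotypes overlapped in both (log2 differences of -0.12 and 0.18; limma, adjusted p = 1.0 for each). The maturation factors of the dual oxidases, Duoxa1 and Duoxa2, had log2 differences of -0.07 and 0.11 (limma, adjusted p = 1.0 for each). Neither difference exceeded the spread between arrays.

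Thioredoxin and peroxiredoxin recycling had 9 tested genes, 6 with a positive and 3 with a negative log2 difference and a median of 0.05. Srxn1, which repairs peroxiredoxins whose cysteine has been over-oxidised, had its smallest p, with 2424, 2380 and 2218 in knockouts 2, 4 and 6, against 2553, 1631 and 1908 in heterozygotes 1, 3 and 5. Its highest value was on a heterozygous array, so the groups overlapped despite a log2 difference of 0.23 (limma, adjusted p = 1.0). Txnrd2, the mitochondrial thioredoxin reductase that serves Prdx3, read 188.5, 351.6 and 436.0 in knockouts against 253.0, 187.9 and 312.2 in heterozygotes. Its lowest arrays were knockout 2 and heterozygous 3, as for Prdx3, and its log2 difference of 0.30 had an interval from -0.41 to 1.02. With the mean of all tested probe sets of a gene in place of the brightest, the median of this list was -0.03.

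Glutathione supply had 8 tested genes, 7 with a positive and 1 with a negative log2 difference, and a median of 0.05. Gsr, the reductase that regenerates glutathione, had the smallest p, at 4864, 5066 and 4970 in knockouts 2, 4 and 6 and 5020, 4485 and 4759 in heterozygotes 1, 3 and 5. Nnt, which makes mitochondrial NADPH, read 7081, 6416 and 5881 in knockouts against 6894, 5716 and 5697 in heterozygotes. In each the genotypes overlapped, with log2 differences of 0.06 and 0.08 (limma, adjusted p = 1.0 for each).

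Of the family members outside the 10, 3 were tested. Gpx8, a membrane protein of the endoplasmic reticulum, read 3067, 3144 and 2660 in knockouts 2, 4 and 6, against 2868, 3219 and 3235 in heterozygotes 1, 3 and 5, and Gpx7, which resides there as well, read 866.0, 956.7 and 1025 in knockouts against 793.4, 909.8 and 1003 in heterozygotes. Their log2 differences were -0.07 and 0.07 (limma, adjusted p = 1.0 for each), and the genotypes overlapped. Gpx2, the glutathione peroxidase known from the gut lining, read at least 2443 on every array and had a difference of 0.02. The peroxisome genes all had a positive log2 difference, 7 of 7 with a median of 0.08, beside 13318 of the 27022 probe sets tested, and for none of the 7 did the groups lie apart. Their median deviation was -0.17, 0.17 and 0.08 on knockouts 2, 4 and 6 and -0.04, -0.11 and 0.07 on heterozygotes 1, 3 and 5. The brown fat markers, the fibroblast markers and the red cell markers (2 tested genes) each had these signs on all 6 arrays. The part of these tissues here was not tested. Pex11a, which drives peroxisome division, had the smallest p, at 1175, 1716 and 1839 in knockouts against 1185, 1263 and 1494 in heterozygotes, and Pex5, the receptor that imports catalase, read 522.9, 670.2 and 729.3 in knockouts against 547.6, 580.1 and 529.1 in heterozygotes. In both, knockout 2 was the lowest of all 6 arrays and the other knockouts were the highest, and the log2 differences of 0.24 and 0.20 did not pass (limma, adjusted p = 1.0 for each).

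**Figure D4:**
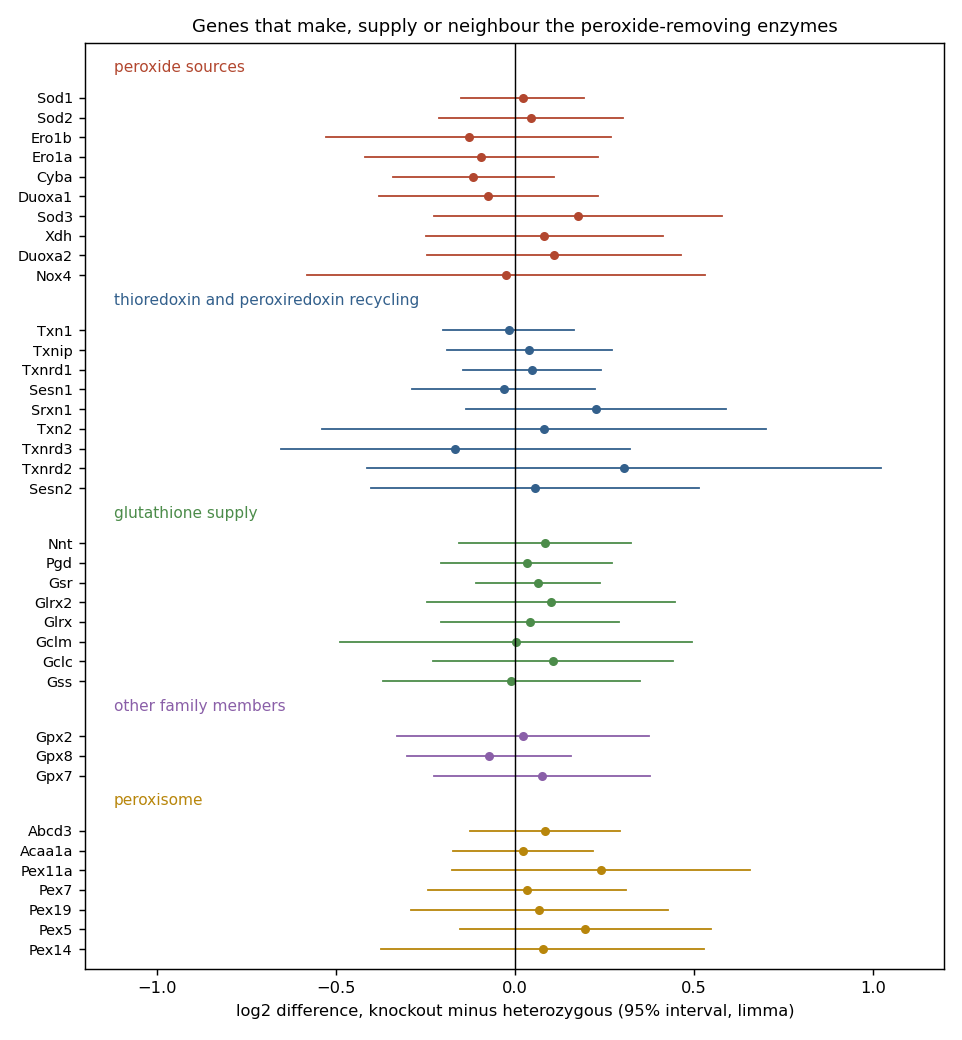
Log2 difference between knockout and heterozygous thyroid (x axis, limma's 95% interval as a line) for the 37 tested genes of 5 lists, each by its brightest probe set. Every interval includes 0, and the widest is that of Txnrd2, from -0.41 to 1.02.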

How the data were processed

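The authors deposited 1 linear intensity for each probe set and array (Affymetrix mouse 430.2). Per the labels' protocols, RNA was extracted with a Qiagen kit and labelled by the Ovation method. The submitters' processing notes name GCOS; no version or setting of it is given in the sources used here. Each array's mean, trimmed by 2% at both ends, was 500.002, so the arrays had been scaled to each other, and a change shared by most transcripts would not show.

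The platform annotation gives 1 symbol to 34958 of 45101 probe sets, several to 932 and none to 9211. Before the log2 transform 16.7, the 25th percentile of all values, was added to every signal, which understates fold changes of dim probe sets. After removal of 64 control probe sets, the 27022 with a mean log2 value above the 40th percentile (a signal of 43.5) were tested with limma 3.58.1 in R 4.3.3 (lmFit, then eBayes with an intensity trend). Adjustment was by Benjamini-Hochberg over all of them, with a threshold of 0.05. The fit was tested on simulated data. An exact permutation test of 3 arrays against 3 cannot go below p = 0.1 and was not used. The number of arrays limits the precision.

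Named are every listed enzyme, Slc26a4, the 2 genes of smallest unadjusted p in each surrounding list, the nearest profiles of the 3 most variable enzymes, and markers; Duoxa1, Duoxa2 and Gpx2 were added after their values were seen. The enzymes and lists were chosen with earlier results of these data known. Alternatives were quantile and cyclic loess normalization, other pseudocounts and filters, a floor at background, eBayes without a trend or robust, array weights and each array left out. Promoter windows are from RefSeq, GRCm38.p6.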

Additional observations from a re-analysis of the deposited data

How the results depend on the processing

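The count of enzymes' probe sets past the threshold stayed at 0 under all 17 alternatives, as did the count over all tested probe sets (limma), where between 95 and 934 had an unadjusted p under 0.05. At that unadjusted level the enzymes had 0 or 1 of 12 (1 without knockout 2, Prdx4 1435731_x_at at -0.24, limma). The smallest adjusted p of any enzyme under any alternative was 0.959. The median log2 difference of the enzymes, -0.02, ran from -0.067 to 0.068 when 1 array was left out, above 0 without knockout 2 and without heterozygous 5 (0.050). It was 0.031 with array weights and 0.021 with 1 value a gene. With all arrays kept, 2 of 119 differences turned in sign, both with array weights, to 0.029 for Prdx2 1418506_a_at and 0.15 for 1430979_a_at. Leaving out 1 array turned the sign for 9 of the 12 probe sets at least once. The ranges were -0.0061 to 0.20 for Gpx1, -0.23 to 0.072 for Gpx3, -0.21 to 0.13 for Gpx4 1451695_a_at and -0.11 to 0.19 for 1456193_x_at. They were -0.069 to 0.043 for Prdx2 1418506_a_at, -0.20 to 0.18 for 1430979_a_at, -0.15 to 0.0017 for Prdx4 1416167_at, -0.025 to 0.063 for Cat 1416429_a_at and -0.0051 to 0.11 for 1416430_at. Leaving out heterozygous 1 and knockout 4 together, chosen after seeing the data, turned Gpx4 1451695_a_at to 0.024. The causes were not tested. No paired analysis was possible because the genotypes share no sample number.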
